A study of Mus musculus with 6 samples.

Results

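The short structural RNAs 7SK, 7SL, RMRP and RPPH1 were followed across 6 libraries of GL261, a mouse glioma cell line. They were the 5 genes Rn7sk, Rn7s1, Rn7s2, Rmrp and Rpph1, chosen by the gene name carried on the transcript lines, out of 58188 genes in the files. All 5 were present in each library, and all 5 passed the filter on low values, as did 15486 genes in all. Total RNA had been taken 4 h after addition of 1 uM sodium propionate (3 libraries, numbered 1, 4 and 5) or 1 uM sodium chloride, which carries the same cation (3 libraries, numbered 1, 2 and 3). The labels give no genetic change of the cells. The libraries were made with a stranded total RNA kit. Nothing in the labels ties the libraries to separate cultures. A p-value here therefore weighs the spread among 6 samples, and that spread may be technical.

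These RNAs are made by RNA polymerase III and work inside ribonucleoprotein particles. 7SK holds the elongation kinase P-TEFb inactive together with Hexim proteins, under a cap placed by Mepce and an end bound by Larp7. 7SL is the scaffold of the signal recognition particle, which carries ribosomes making secreted and membrane proteins to the endoplasmic reticulum. Rpph1 is the catalytic RNA of RNase P, which trims the leader of precursor tRNAs. Rmrp is the related RNA of RNase MRP, which cuts precursor ribosomal RNA. RNase P and RNase MRP share most of their proteins.

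The Rmrp and 7SK sequences below are shown because reads of these RNAs were divided between models that share them. They are the transcript sequences of GENCODE M21, on the build mm10 that the submitters' processing notes name. The 7SL gene Rn7s2 lies on the minus strand at chr12:69361182-69361481, and Rn7s1 on the plus strand at chr12:69159295-69159596, each a single exon of a noncoding gene. Their annotated sequences were identical over 300 of 300 bases. Bases 1 to 212 of Rn7s2 are also covered by a separate model named Gm47305, annotated as a miRNA and extended in these files from 70 to 212 bases. Rmrp lies on the minus strand at chr4:43492783-43493063, and the capitals mark 5 bases at the 3′ end held only by the longer of its models. Rn7sk lies on the minus strand at chr9:78175303-78175633 and is 331 bases long. Its first 300 bases are shown, with capitals for bases 1 to 241, which are repeated without a mismatch in Gm24447 on chromosome 15.
Rmrp, longer model: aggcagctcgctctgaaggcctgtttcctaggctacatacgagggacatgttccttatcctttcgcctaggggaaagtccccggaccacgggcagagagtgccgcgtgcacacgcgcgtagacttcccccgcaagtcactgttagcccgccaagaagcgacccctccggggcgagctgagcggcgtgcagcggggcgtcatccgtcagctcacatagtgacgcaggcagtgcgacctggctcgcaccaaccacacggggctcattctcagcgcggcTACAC
7SK bases 1 to 300: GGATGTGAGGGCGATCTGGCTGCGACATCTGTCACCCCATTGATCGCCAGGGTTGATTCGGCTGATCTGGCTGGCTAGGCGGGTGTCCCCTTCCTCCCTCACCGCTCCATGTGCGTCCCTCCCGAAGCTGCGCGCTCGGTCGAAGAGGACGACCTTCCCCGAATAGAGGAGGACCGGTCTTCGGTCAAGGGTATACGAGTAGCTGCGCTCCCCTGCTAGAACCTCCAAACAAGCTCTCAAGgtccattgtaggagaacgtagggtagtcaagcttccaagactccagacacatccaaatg

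In mammalian 7SK the letters GATC near the 5′ end are known as part of the Hexim binding site. GATC, which reads the same on both strands, began at bases 13, 42 and 64 of mouse 7SK, all within the stretch shared with Gm24447. At least 3 matches were found in 7.50% of 5627 annotated transcripts of 250 to 350 bases. Rpph1 lies on the minus strand at chr14:50807449-50807767 and is 319 bases long. The GC content was 62.3% for 7SL, 58.0% for 7SK, 64.2% for the annotated shorter Rmrp transcript and 67.1% for Rpph1.

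The libraries held 8.30 to 10.3 Gb of bases assigned to transcript models. Propionate 1 and chloride 3 stood apart with 71192 and 71452 transcripts with any coverage, against 81178 to 82370 in the other 4 libraries, so values without these libraries are given where they matter. Markers written for glioma cells were partly present. Of 10, 7 were tested, Nes, Vim, Sox2, S100b and Cd44 among them, while Gfap was at or under 1.31 scaled TPM and Sox9 and Slc1a3 were near 0. Ptprc, Pecam1, Cd3e, Rbfox3 and Hbb-bs, which mark immune cells, endothelium, T cells, neurons and red cells, were each at or under 0.124 scaled TPM in every library. Summed over their lists, markers of microglia or macrophages had 1.40 to 2.05 scaled TPM per library, with 1 of 6 tested. Those of red cells had 0.920 to 1.77, with 0 of 3 tested. Of the markers of other cells, Col1a1 (fibroblasts) had 75.2 to 98.4 scaled TPM in propionate and 85.8 to 98.7 in chloride, and Tubb3 (neurons) had 73.9 to 89.8 in propionate and 78.05 to 79.0 in chloride. Their part in the results was not tested.

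The 5 genes were among the most abundant of the whole transcriptome on a per-length scale. TPM, the unit the authors deposited, is a relative abundance corrected for transcript length and library size. In each library Rn7s1 ranked 1, Rn7sk and Rn7s2 ranked 2 or 3, Rpph1 ranked 5 and Rmrp ranked 6 of all genes. Rank 4 was held by Gm47305, the model inside Rn7s2. The most abundant protein-coding gene, Eef1a1, which encodes a translation elongation factor, averaged 9042 TPM, below the lowest value of any of the 5. The 5 together held 18.7, 17.8 and 19.1% of TPM in propionate 1, 4 and 5, against 13.4, 18.7 and 18.3% in chloride 1, 2 and 3. As means these were 18.6 ± 0.648% in propionate and 16.8 ± 2.96% in chloride (SD, n = 3 each). Chloride 1 was low and the other 5 libraries lay between 17.8 and 19.1%.

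Because the genes are short, their share of sequenced bases was smaller than their share of TPM. It was 3.13, 2.97 and 3.18% in propionate 1, 4 and 5 and 2.03, 3.10 and 2.94% in chloride 1, 2 and 3. A read length of 101 bases was inferred from the coverage values. At that length the share equals an estimated 2570749 to 3131321 reads in the propionate libraries and 1742982 to 2607877 in the chloride libraries. Rmrp in chloride 1 had the fewest, about 152631 reads.

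**Figure D1:**
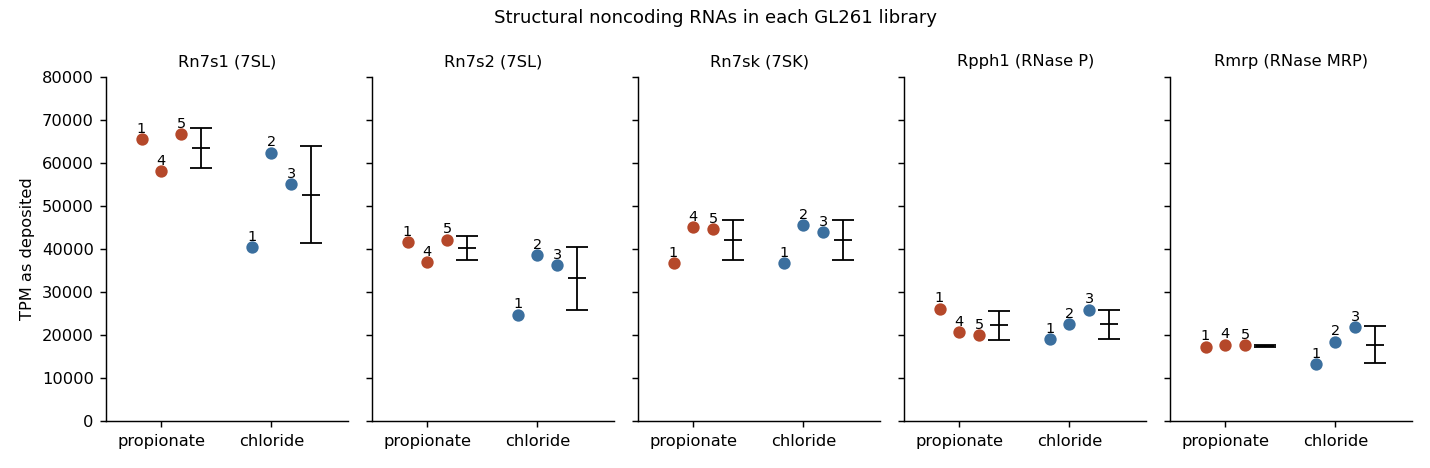
TPM as deposited of each gene in the 3 propionate (left, red) and 3 chloride (right, blue) libraries, with the library number above each point and the mean and SD as a bar. Chloride 1 was the lowest chloride library for each of the 5 genes, and the groups overlapped for every gene.

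Rn7s1 had 65517, 58090 and 66681 TPM in propionate 1, 4 and 5, against 40372, 62441 and 55096 TPM in chloride 1, 2 and 3. Rn7s2 had 41578, 36966 and 42196 TPM in the same propionate libraries, against 24688, 38557 and 36193 TPM in the chloride libraries. For both genes chloride 1 was the lowest of all 6 and the groups overlapped, with chloride 2 above propionate 4. Summed, the 7SL models averaged 103676 ± 7518 TPM in propionate and 85782 ± 18592 TPM in chloride (SD, n = 3 each).

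For the comparison, TPM were scaled by a median of ratios per library and tested by limma on log2(scaled TPM + 1). The log2 difference of the 7SL sum was 0.39 (SE 0.26, 95% interval -0.23 to 1.01, adjusted p = 0.916 by limma). In propionate it averaged 107107 ± 7610 scaled TPM, and in chloride 83480 ± 21631. Rn7s1 gave 0.39 (SE 0.24) and Rn7s2 0.40 (SE 0.23), each with an adjusted p of 0.916 by limma. Without chloride 1 the difference of the sum was 0.17 (SE 0.25, adjusted p = 0.950 by limma). In none of these fits did 7SL differ beyond the spread between libraries, and the interval leaves room for a fold of 0.855 to 2.01. The SE in limma also draws on a variance trend over all genes. Without that trend the SE of the sum was 0.20 (95% interval -0.096 to 0.88).

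Reads of the 7SL genes were divided unequally between models. The Rn7s1 model had 1.57 to 1.58 times the TPM of the Rn7s2 model in propionate and 1.52 to 1.64 times in chloride, although the annotated sequences are the same. In bases, the Rn7s1 model held 98.0 to 99.1% of what all models at its locus received. The Rn7s2 model held 60.1 to 61.9%, and most of the rest went to Gm47305, which had 32150, 30837 and 34464 TPM in propionate 1, 4 and 5 and 20454, 32300 and 27489 TPM in chloride 1, 2 and 3.

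Summed over all models of a locus, the Rn7s2 locus held 1.00 to 1.04 times the bases of the Rn7s1 locus in propionate and 1.00 to 1.03 times in chloride. The excess of Rn7s1 over Rn7s2 in TPM of the named models was thus not present in bases per locus. Which copy the reads came from cannot be told apart from identical sequence. With every model that holds an identical 7SL stretch added, the log2 difference was 0.39 (SE 0.28, adjusted p = 0.916 by limma), as for the pair of models.

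**Figure D2:**
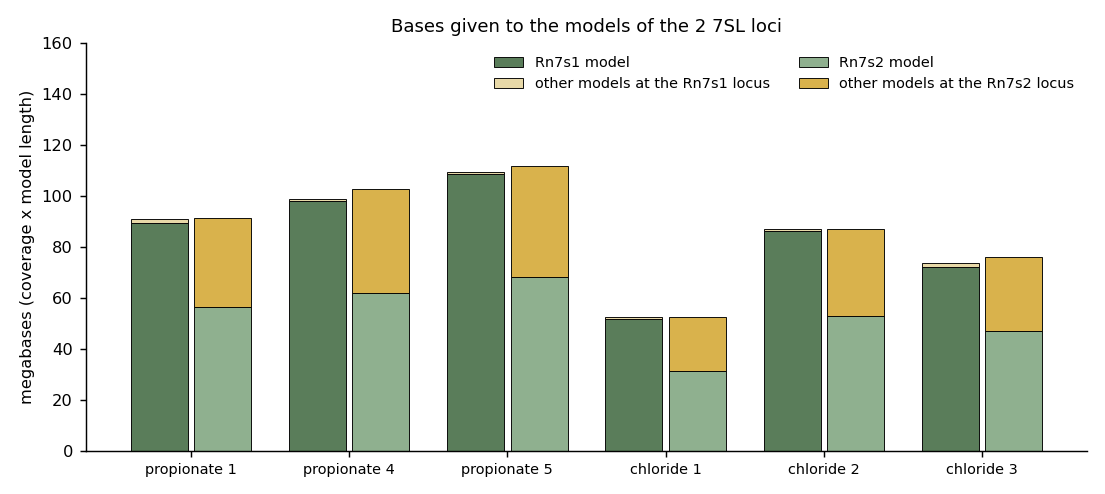
Megabases (coverage times model length) at the Rn7s1 locus (left bar) and the Rn7s2 locus (right bar) in each library, split into the named model and the other models there. The bars of a library are nearly level while the Rn7s2 model holds 60.1 to 61.9% of its own.

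Rn7sk had 36755, 45061 and 44575 TPM in propionate 1, 4 and 5, against 36750, 45575 and 43878 TPM in chloride 1, 2 and 3. Both libraries numbered 1 were low, and the other 4 lay within 43878 to 45575 TPM. The log2 difference was 0.10 (SE 0.19, 95% interval -0.35 to 0.55, adjusted p = 0.956 by limma), from 43538 ± 4947 scaled TPM in propionate and 40801 ± 6353 in chloride (SD, n = 3 each). It was -0.031 without chloride 1 and 0.23 without propionate 1 and chloride 3, so its sign depended on the libraries. Quantile normalization gave -0.091, but it sets values by rank and cannot show the level of Rn7sk. The other scalings gave 0.0022 to 0.090.

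Models related to 7SK were numerous, with 125 annotated transcripts matching it in blastn at an E value of 1e-10 or less, but few were expressed. Of these, 2 averaged at least 100 TPM, Gm24447 with bases 1 to 241 of 7SK and Gm26315 on chromosome 2 with bases 5 to 239, both without a mismatch. Gm24447 had 5939, 4709 and 5236 TPM in propionate 1, 4 and 5, and 4013, 5439 and 5558 TPM in chloride 1, 2 and 3. Together these copies came to 31.8, 19.7 and 22.4% of the Rn7sk level in propionate 1, 4 and 5, and to 20.6, 22.8 and 24.5% in chloride 1, 2 and 3. Propionate 1, where Rn7sk was low, had the highest share on the copies. With the bases of both copies added to Rn7sk, the log2 difference was 0.12 (SE 0.19, adjusted p = 0.944 by limma).

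Rn7sk was set against 7SL within each library, since the ratio does not depend on the scaling. The ratio of TPM was 0.343, 0.474 and 0.409 in propionate 1, 4 and 5 and 0.565, 0.451 and 0.481 in chloride 1, 2 and 3. The mean log2 ratio was -1.30 ± 0.23 in propionate and -1.01 ± 0.17 in chloride, a difference of -0.29 (two-sided exact permutation test, p = 0.20, n = 3 each, with 0.10 the smallest p this design allows). The groups overlapped, and the difference was -0.20 without chloride 1 and -0.17 without propionate 1.

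Rpph1 had 26157, 20585 and 19936 TPM in propionate 1, 4 and 5, against 18988, 22455 and 25894 TPM in chloride 1, 2 and 3. Propionate 1 and chloride 3, the libraries with fewer covered transcripts, were the highest of their groups. The log2 difference was 0.08 (SE 0.19, 95% interval -0.37 to 0.54, adjusted p = 0.964 by limma), from 22956 ± 3455 scaled TPM in propionate and 21756 ± 3942 in chloride. Its sign turned without chloride 1 (-0.067) and without propionate 1 (-0.036). With TPM as deposited it was -0.013, where the median of all genes was -0.083.

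Rmrp had 17281, 17682 and 17608 TPM in propionate 1, 4 and 5, against 13150, 18431 and 21749 TPM in chloride 1, 2 and 3. The propionate libraries lay close together, at 17524 ± 213 TPM (SD, n = 3), while the chloride libraries lay on both sides of them, at 17777 ± 4337 TPM (SD, n = 3). The log2 difference was 0.11 (SE 0.22, 95% interval -0.40 to 0.62, adjusted p = 0.958 by limma), and it was -0.13 without chloride 1 and 0.28 without propionate 1 and chloride 3. A difference in spread was not tested at n = 3.

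The longer Rmrp model made up 1.48, 0.596 and 0.469% of Rmrp TPM in propionate 1, 4 and 5, and 0.523, 0.320 and 1.62% in chloride 1, 2 and 3. Propionate 1 and chloride 3 were high, the same libraries that had fewer covered transcripts, and the groups overlapped. The part of that feature in the model shares was not tested.

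The ratio of Rmrp to Rpph1, the RNAs of enzymes that share proteins, was 0.661, 0.859 and 0.883 in propionate 1, 4 and 5 and 0.693, 0.821 and 0.840 in chloride 1, 2 and 3. Both libraries numbered 1 were low and the other 4 lay within 0.821 to 0.883. The mean log2 ratio was -0.33 ± 0.23 in propionate and -0.36 ± 0.15 in chloride, a difference of 0.023 (two-sided exact permutation test, p = 0.80, n = 3 each). The difference was -0.064 without chloride 1 and 0.21 without propionate 1 and chloride 3.

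**Figure D3:**
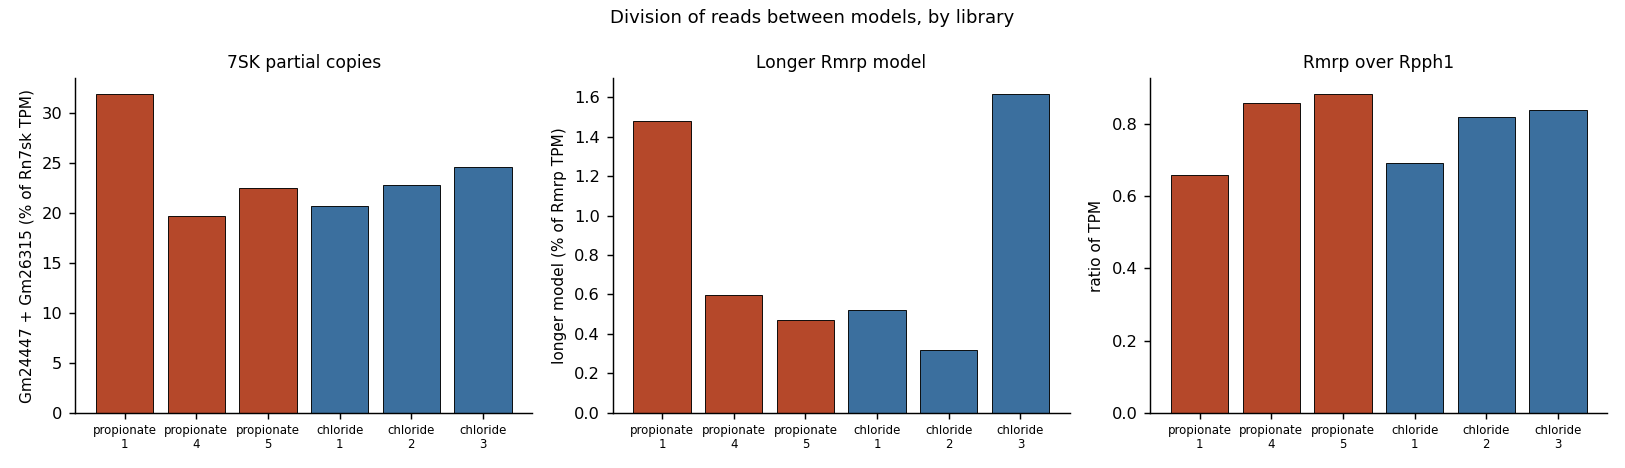
Share of the 7SK partial copies relative to Rn7sk, share of the longer Rmrp model, and ratio of Rmrp to Rpph1, in each propionate (red) and chloride (blue) library. Propionate 1 had the highest share on 7SK copies (31.8%), the longer Rmrp model was at 1.48% in propionate 1 and 1.62% in chloride 3, and Rmrp over Rpph1 was 0.661 in propionate 1 and 0.693 in chloride 1.

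Over the whole transcriptome, limma called 1 of 15486 genes at an adjusted p under 0.05, which is 0.00646% of those tested. None of the 5 structural RNAs was called, and none had groups that did not overlap, against 11.7% of all tested genes without overlap. At an unadjusted p under 0.05 there were 793 genes (5.12%), and none of the 5 was among them by limma. All 5 had a positive sign, against 51.8% of tested genes. Rn7s1 and Rn7s2 have the same annotated sequence, so these are not 5 separate counts. The median over the 5 was that of Rmrp, 0.11, against 0.01 over all genes. Without chloride 1, 3 of the 5 were negative (Rn7sk, Rmrp and Rpph1), while Rn7s1 (0.17) and Rn7s2 (0.17) stayed positive.

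The spread of the 5 within groups was wide beside most other genes averaging 100 TPM or more. For Rmrp and 7SL it was much smaller without chloride 1. The within-group SD of log2 values was 0.20 for Rn7sk, 0.24 for Rpph1, 0.30 for Rmrp, 0.29 for Rn7s1 and 0.30 for Rn7s2. Over the 1375 other genes that averaged 100 TPM or more, not matched to the 5 in level or length, the median SD was 0.10. Of these genes, 89.3% had a smaller SD than Rn7sk, 92.0% than Rpph1 and 94.3 to 95.1% than Rmrp and the 7SL genes. Without chloride 1, left out after its values were seen, the SD was 0.076 for Rmrp, 0.10 for Rn7s2, 0.13 for Rn7s1, 0.15 for Rn7sk and 0.18 for Rpph1. The median of the other genes was then 0.10. Of them, 31.2% had a smaller SD than Rmrp, 50.3% than Rn7s2, 65.7% than Rn7s1, 72.4% than Rn7sk and 83.6% than Rpph1. Chloride 1 was the lowest library for each of the 5, so leaving it out favoured a smaller SD for them and not for the other genes.

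**Figure D4:**
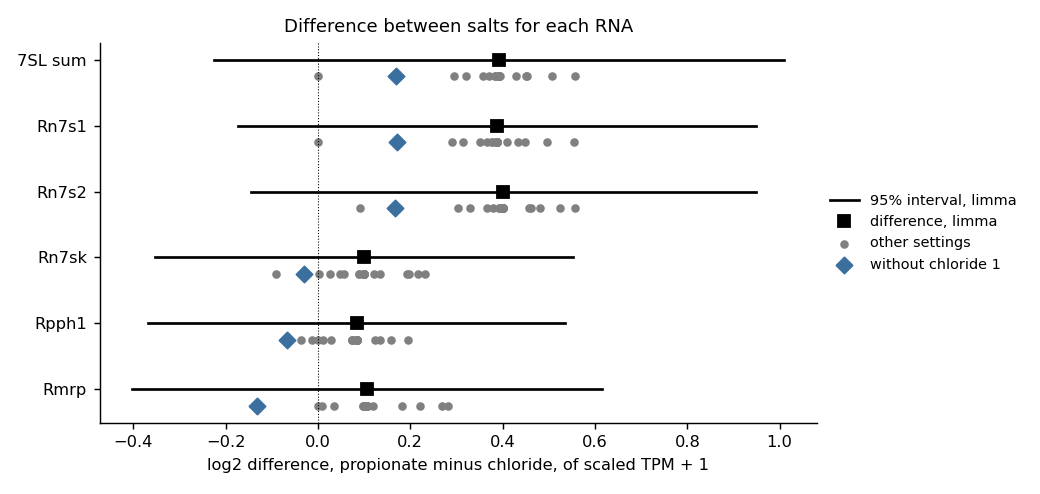
Log2 difference (propionate minus chloride) of scaled TPM + 1 for each RNA, with the 95% interval from limma (squares, lines), the value without chloride 1 (diamonds) and under the other settings (grey). Every interval includes 0, and the diamonds lie at 0.17 for the 7SL sum and below 0 for Rn7sk, Rpph1 and Rmrp.

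Chloride 1 also had low values for many of the other short structured RNAs on a hand-written list. The list had 22 genes that averaged 1 TPM or more, and 14 of them were lowest in chloride 1. At that level 65 annotated small noncoding RNAs of 200 to 400 bases were unrelated to the 5. Of these, 18 were lowest in chloride 1 and 17 in propionate 1. Of 309 shorter ones, 67 were lowest in chloride 1 and 80 in propionate 1. Summed TPM of the 65 was 3340, 2490 and 3274 in propionate 1, 4 and 5, and 1773, 2898 and 3095 in chloride 1, 2 and 3. For the 309 it was 4022, 3197 and 3484 in propionate, and 3040, 3404 and 4074 in chloride. The summed level of the list was 1686, 1511 and 1873 scaled TPM in propionate 1, 4 and 5, and 935, 1564 and 1677 in chloride 1, 2 and 3. The U3 gene Rnu3b4, which encodes a small nucleolar RNA for ribosomal RNA processing, had 260, 213 and 268 scaled TPM in propionate, against 67.8, 160 and 246 in chloride (log2 difference 0.82, SE 0.42, adjusted p = 0.916 by limma). Rnu3b3, another U3 gene, had 44.4, 41.4 and 41.3 scaled TPM in propionate and 28.2, 35.1 and 42.3 in chloride (log2 0.28, SE 0.14, adjusted p = 0.916 by limma).

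Of the list, 9 genes were long enough to be tested and 0 were called by limma, with 7 higher and 2 lower by sign and none at an unadjusted p under 0.05. The median log2 difference was 0.30, and 0.12 without chloride 1, and 5 of the 9 were U3 genes. How reads were divided among the U3 genes was not examined, so their values may not be independent. Over the small noncoding RNAs at large the medians had the other sign, -0.089 at 200 to 400 bases (24 of 65 higher) and -0.11 below 200 bases (123 of 309 higher). Their part in the low 7SL, Rn7sk, Rmrp and Rpph1 values of chloride 1 was not tested.

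Proteins that bind 7SK or act with P-TEFb numbered 25 on a list, of which 23 were tested and 0 were called by limma. By sign 7 were higher and 16 lower, with 1 at an unadjusted p under 0.05, and the median log2 difference was -0.04 against 0.01 over all genes. Groups did not overlap for 1 of the 23, against 11.7% of all tested genes. Ccnt2, a cyclin of P-TEFb, averaged 19.4 ± 0.215 scaled TPM in propionate and 22.5 ± 1.48 in chloride (SD, n = 3 each; log2 -0.21, SE 0.07, adjusted p = 0.916 by limma), with all propionate libraries below all chloride libraries. Hnrnpa2b1, which binds released 7SK, stood at 204 ± 16.1 scaled TPM in propionate and 229 ± 32.1 in chloride (log2 -0.16, adjusted p = 0.916 by limma). The P-TEFb inhibitor Hexim1 had a log2 difference of -0.11 (SE 0.09), Larp7 of -0.09 (SE 0.11) and Mepce of -0.04 (SE 0.06), with adjusted p-values of 0.932 to 0.943 by limma.

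The signal recognition particle list held 15 genes, all tested, with 0 called by limma, 9 higher and 6 lower by sign and none at an unadjusted p under 0.05. The median was 0.02. Groups did not overlap for 2 of the 15, against 11.7% of all tested genes. Srp9 and Srp14 form the pair that binds the Alu end of 7SL, and both were higher by sign. Srp14 averaged 159 ± 4.87 scaled TPM in propionate and 145 ± 10.4 in chloride (log2 0.13, SE 0.07, adjusted p = 0.916 by limma), without overlap between groups. Srp9 gave 0.12 (SE 0.07), and Sec61b, a subunit of the translocation channel, gave 0.12 (SE 0.07), both with an adjusted p of 0.916 by limma.

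Of the proteins at the other end of 7SL, Srp19 gave -0.18 (SE 0.11), Srp68 0.11 (SE 0.08) and Srp72 -0.05 (SE 0.06). Srp54a, the GTPase that binds signal sequences, gave -0.07 (SE 0.18). It has near-identical copies in Srp54b and Srp54c, so its value is uncertain. None of these 4 was called by limma (adjusted p = 0.916 to 0.971).

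The RNase P and RNase MRP list held 11 genes, of which 10 were tested and 0 were called by limma, with 7 higher and 3 lower by sign and 1 at an unadjusted p under 0.05. The median was 0.05. Groups did not overlap for 2 of the 10 tested, against 11.7% of all tested genes. Pop7 averaged 20.4 ± 1.77 scaled TPM in propionate and 17.4 ± 0.881 in chloride (log2 0.22, SE 0.08, adjusted p = 0.916 by limma), without overlap. Pop1, the largest subunit, averaged 44.1 ± 2.79 scaled TPM in propionate and 47.2 ± 0.660 in chloride (log2 -0.10, SE 0.06, adjusted p = 0.916 by limma), also without overlap. Rpp30 gave 0.04 (SE 0.09), Rpp38 -0.12 (SE 0.13) and Rpp40 -0.02 (SE 0.13), with adjusted p-values of 0.938 to 0.989 by limma. Rpp25 was at or under 0.126 scaled TPM in each library and was not tested, whereas its relative Rpp25l stood at 32.1 ± 2.21 in propionate and 30.6 ± 0.169 in chloride.

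The polymerase III list held 38 genes, of which 37 were tested and 0 were called by limma, with 17 higher and 20 lower by sign, 2 at an unadjusted p under 0.05 and a median of -0.01. Snapc4, a subunit of the complex that binds the upstream element of the 7SK, Rmrp and Rpph1 class of promoter, had 15.8, 14.1 and 14.5 scaled TPM in propionate 1, 4 and 5, against 18.8, 18.04 and 22.5 in chloride 1, 2 and 3. Its log2 difference was -0.39 (SE 0.10, adjusted p = 0.916 by limma), with no overlap between groups. Such a lack of overlap held for 4 of the 37 tested, against 11.7% of all tested genes. Polr2k, a small subunit shared by the RNA polymerases, had 51.2, 51.8 and 39.2 scaled TPM in propionate, against 32.2, 39.7 and 27.5 in chloride (log2 0.51, SE 0.16, adjusted p = 0.916 by limma). Its groups overlapped. Maf1, the repressor of polymerase III, gave 0.08 (SE 0.06).

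**Figure D5:**
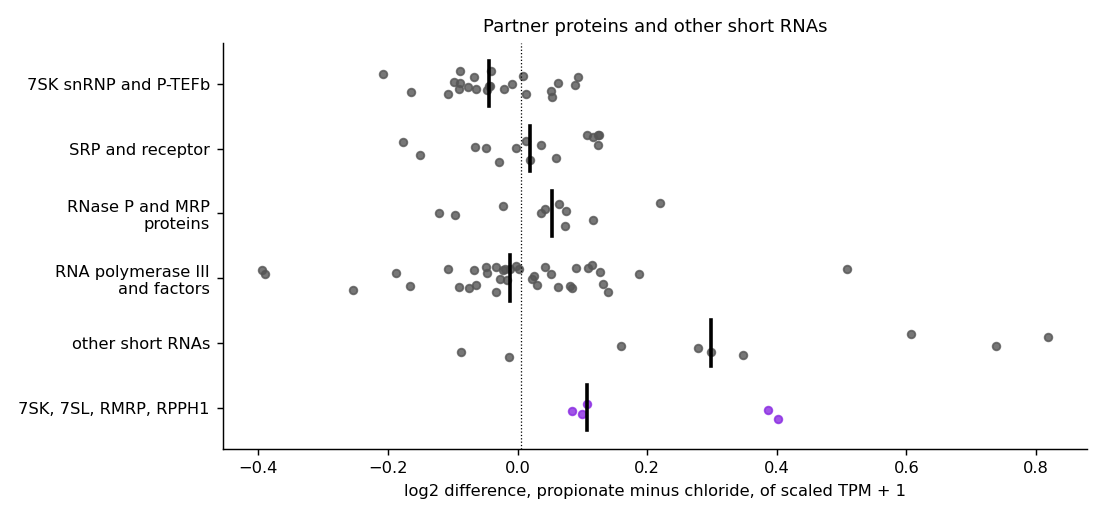
Log2 difference (propionate minus chloride) of each tested gene in 5 lists and of the 5 structural RNAs (purple), with a bar at each median and a dotted line at the median of all genes, 0.01. Partner protein genes centre between -0.04 and 0.05, and the other short RNAs at 0.30.

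The nearest protein-coding genes were far less abundant per length than the structural RNAs. Parp2, a DNA repair polymerase gene that starts 74 bases from Rpph1 on the other strand, stood at 28.9 ± 1.23 scaled TPM in propionate and 30.1 ± 1.43 in chloride (log2 -0.06). Rps29, a ribosomal protein gene 109 bases from Rn7s1 on the other strand, stood at 1643 ± 142 scaled TPM in propionate and 1467 ± 123 in chloride (log2 0.16). Ccdc107 overlaps Rmrp on the other strand and stood at 36.7 ± 7.13 scaled TPM in propionate and 36.1 ± 4.33 in chloride (log2 0.01). Arhgef39, on the other side of Rmrp, gave -0.18, without overlap between groups, as held for 11.7% of all tested genes. Limma adjusted p-values of these 4 were 0.916 to 0.994.

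Ccnb1ip1, whose annotated span overlaps Rpph1 on the same strand and which shares its assembled locus, was listed at 0 in every library. Among the other neighbours, Ttc5 gave -0.02, Nemf -0.04, Lrr1 0.00, Gsta4 0.20 and the model Gm9887 0.11. Ick, beside Rn7sk, had 2.40, 3.71 and 2.74 scaled TPM in propionate and 3.44, 3.32 and 6.22 in chloride, and Sit1 beyond Rmrp was listed at 0. Whether strand was used in quantifying is not stated in what was used here, so reads of Rmrp and of the overlapping end of Ccdc107 cannot be told apart.

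Genes whose levels moved most like each RNA over the 6 libraries were sought among 8965 protein-coding genes and named long noncoding RNAs, as a description in which all points share the same libraries and scaling. Rn7sk was nearest to Mrps24 (Pearson r = 0.98), Cers5 (0.98) and Il1rap (0.98). The 7SL sum was nearest to Alg9 (0.97), Tmem214 (0.97) and Manba (0.97). Rmrp was nearest to Ss18 (0.98), Cpne8 (0.97) and Abca7 (0.96), and Rpph1 to Mxra8 (0.99), Ly6c2 (0.98) and Oma1 (0.98). Chloride 1 was the lowest library for each gene named here, as they were chosen for likeness to RNAs lowest in that library. Alg9, for example, lay at 23.9 to 24.4 scaled TPM in propionate and 20.8 to 24.02 in chloride.

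The other genes of 200 to 400 bases with the highest levels were mostly related to the 5. Gm47305, Gm24447 and Gm26315 led, with log2 differences of 0.40, 0.19 and 0.20, none called by limma (adjusted p = 0.916 to 0.933). Next came Rps12-ps3, with 1542 ± 129 scaled TPM in propionate and 1442 ± 226 in chloride, and the histone gene H4c6, with 1520 ± 299 in propionate and 1349 ± 18.2 in chloride. Neither Rps12-ps3 nor H4c6 was called (adjusted p = 0.930 to 0.938 by limma).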

How the data were processed

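Total RNA libraries of GL261 cells were analysed. The authors deposited, per the file headers, per-transcript coverage, FPKM and TPM made by StringTie 2.1.1 for a fixed set of 157296 models (142491 reference, 14805 assembled) in each library separately, with no counts. Besides StringTie, the submitters' processing notes list HISAT2, fastp, bcl2fastq and the mm10 build, in no order. Their settings were not stated.

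TPM were summed per gene. Genes of at least 200 nt and a mean of at least 1 TPM were scaled by the median ratio and tested on log2(TPM + 1) with limma 3.58.1 in R 4.3.3 (two-sided, Benjamini-Hochberg over all genes, threshold 0.05). A fold on this scale understates changes of low genes. Ratios were tested by exact permutation with scipy 1.17.1. Related models were aligned with blastn 2.17.0. The test was checked on simulated data with independent noise for each gene, which does not cover a library low in many genes at once. GENCODE M21 gave positions and sequences. Promoters were not used here.

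The 5 genes and the lists were chosen with earlier results of these data known. Named genes were the 5, their protein-coding neighbours, the 2 smallest p-values of each list where none was called, fixed partner genes, the 3 genes most alike and the 5 leading short genes. Genes named besides these were chosen after their values were seen. Lists of endothelial, lymphoid and erythroid markers had 0 tested genes, and those of microglia, neurons and fibroblasts 1, 1 and 2, none of them called.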

Additional observations from a re-analysis of the deposited data

How the results depend on the processing

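The structural RNAs stayed uncalled by limma in every setting run (adjusted p from 0.315 to 1.00), and each of the 5 lists had 0 calls in each. With no filter the SE was 0.70 for Rmrp and 4.09 for the 7SL sum, against 0.22 and 0.26 in the main fit. That setting could not have called differences of the size seen in the 5 RNAs. The settings were another pseudocount, 4 other scalings, 3 other filters, no variance trend, library weights, reference transcripts alone, voom, the 4 libraries other than propionate 1 and chloride 3, a term for that pair, and each library left out. Adding related models was chosen after seeing the data. Quantile normalization gave 0.00 for Rn7s1, the 7SL sum, Rpph1 and Rmrp and -0.091 for Rn7sk, as it sets values by rank and these ranks were fixed or nearly so. That scaling therefore could not show a change in their level. With TPM as deposited Rpph1 was -0.013, when the median of all genes was -0.083 against 0.01 after scaling. With 1 library left out the log2 difference ran from 0.17 to 0.56 for the 7SL sum and Rn7s1, 0.17 to 0.56 for Rn7s2, -0.031 to 0.20 for Rn7sk, -0.067 to 0.19 for Rpph1 and -0.13 to 0.27 for Rmrp. The ratio of Rmrp to Rpph1 ran from -0.064 to 0.16, that of Rn7sk to 7SL from -0.41 to -0.17, and the difference in share of TPM from 0.042 to 2.72 percentage points, against 1.75 with all libraries. The lowest was without chloride 1. Library weights gave 0.50 for Rn7s1, 0.52 for Rn7s2 and 0.51 for the 7SL sum. Their unadjusted p by limma was 0.039, 0.029 and 0.048, and their adjusted p 0.315 to 0.348. Genes called over all numbered 1, but 0 with no filter (limma, 1420 at an unadjusted p under 0.05) and 0 with voom (826). They numbered 2 with a mean of at least 5 TPM, 2 with library weights (2196 at an unadjusted p under 0.05 by limma) and 6 with the 4 libraries. With 1 library left out they numbered 1 to 4, the 4 being without propionate 1. Here the cause was not tested. No paired analysis was possible because the groups share only the replicate number 1. With 3 libraries per salt, intervals of the 5 RNAs in the main fit spanned 0.757 to 1.93 as a fold. Differences within them cannot be told apart from none.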
